A study of Mus musculus with 4 samples.

Results

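The genes described here encode the MHC class II antigen presentation machinery and a pair of costimulatory ligands. The set has 10 genes: the class II chains H2-Aa, H2-Ab1 and H2-Eb1, the peptide-loading genes H2-DMa, H2-DMb1, Cd74 and Ctss, the transactivator Ciita, and the ligands Cd80 and Cd86. Every non-control probe that the array files assign to one of these names was taken, which gave 23 of 56605 probes and 10 of 37021 genes with a value on every array. The names were chosen by gene function with the AAI to corn oil ratios of these arrays already known, so the values given here describe the genes and carry no test.

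Class II molecules are heterodimers of an alpha and a beta chain that show peptides from ingested material to CD4+ T cells. Cd74, the invariant chain, fills the peptide groove until lysosomal proteases, cathepsin S among them, cut it away, and H2-DM then exchanges its last fragment for a peptide. Class II genes are transcribed mainly in B cells, dendritic cells and macrophages, including the resident Kupffer cells of the liver, under the coactivator Ciita, which is recruited by factors bound to conserved X and Y boxes upstream of each gene. Cd80 and Cd86 on the same cells bind Cd28 on the T cell and give the second signal for its activation.

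The RNA came from the livers of wild-type C57BL/6 mice that were 6 weeks old, by the labels, when treatment began. The study's methods give an age range that starts there. Female mice were injected intraperitoneally with 5 mg/kg/day of aristolochic acid type I (AAI), a nephrotoxin of Aristolochia plants, and male mice with 2 mg/kg/day, on 5 days a week for 3 weeks. Female and male mice injected with corn oil, the vehicle, are called controls here. Total RNA of 5 mice was pooled for each group and hybridized to 1 single-channel array, so that there were 4 arrays and no replicate in any group. Differences between mice of a group were therefore not measured, and among AAI-treated mice sex and dose cannot be told apart. Whole liver RNA was used, in which fewer cells of a type and less RNA per cell cannot be told apart.

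Values are log2 signals after quantile normalization, and each ratio is AAI over corn oil in the same sex, so that -1 is 2-fold lower. A gene is given by its brightest probe. The scanner software estimated an error of 0.20 to 0.21 for a log2 ratio of these 10 probes, which covers the spot and the scan only. Where a gene had several probes, their log2 ratios differed with a median SD of 0.25 in females (9128 genes) and 0.24 in males (8618 genes). Between 74.6% and 81.4% of probes were well above background per array, no spot was saturated, and the brightest probe of each of the 10 genes was above background on all 4 arrays. Of markers of hepatocytes, 9 of 9 on the array were above background on every array, with a summed signal of 1910000 to 2130000. The skeletal muscle markers had summed signals of 1500 in control and 40400 in AAI-treated females, and of 4690 and 295000 in males. Fat and adrenal markers were also higher in the AAI-treated male pool, with median log2 ratios of 3.34 and 3.74, against 0.26 and 0.12 in females. Median ratios were 0.00 and -0.32 for the hepatocyte markers and 0.29 and 0.03 for pancreas markers, in females and males. H2-Ea-ps, the class II E alpha gene, which C57BL/6 mice do not express because of a deletion, was well above background in the AAI-treated male pool alone. In this gene that pool stood apart from the other pools and from its labelled strain, the identity of the pool was not tested, and with 1 array per group no male ratio can be given without it. The part of other tissue in the ratios of the class II genes was not tested.

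Upstream sequences were searched for the X and Y boxes. Promoter windows of RefSeq (build GRCm38.p6, 250 bases before to 50 after each start) were found for 6 of the 10 genes, H2-Aa, H2-Eb1, H2-DMa, H2-DMb1, Ctss and Cd80, and were not found for H2-Ab1, Cd74, Ciita and Cd86. Both strands were searched for an X box core, a shorter core that overlaps it (AACNGATG) and the Y box (ATTGG). The 150 bases before the start are printed for H2-DMb1 (chr17:34153041-34153190, plus strand), H2-Eb1 (chr17:34305717-34305866, plus strand) and H2-Aa (chr17:34287824-34287973, minus strand). In the first and second both boxes were matched, and in the last, a class II chain gene, only the Y box was. They run 5′ to 3′ in the direction of transcription, and capitals mark matches to the X box core and the Y box, with CCAAT marking a Y box on the opposite strand. The X box core is the run of 11 capitals in the first and second lines, with any letter allowed at its positions 3, 4 and 7.
H2-DMb1: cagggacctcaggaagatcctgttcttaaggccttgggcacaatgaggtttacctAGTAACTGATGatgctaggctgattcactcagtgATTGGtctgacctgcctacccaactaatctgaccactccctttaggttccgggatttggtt
H2-Eb1: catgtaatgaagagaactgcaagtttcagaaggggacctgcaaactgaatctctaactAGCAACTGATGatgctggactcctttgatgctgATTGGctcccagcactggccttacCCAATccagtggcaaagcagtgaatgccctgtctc
H2-Aa: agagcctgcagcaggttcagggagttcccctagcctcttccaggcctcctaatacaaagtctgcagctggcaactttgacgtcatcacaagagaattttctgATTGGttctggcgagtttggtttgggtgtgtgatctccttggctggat

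The X box core began 95 bases before the start of H2-DMb1 and 92 bases before that of H2-Eb1, and in each the Y box followed on the same strand, 34 and 33 bases downstream of the start of the core. In H2-Aa the Y box lay 48 bases before the start, and these letters of the X box core were not in the window. The search took these letters only, so an X box with other letters would be missed, and its absence from H2-Aa was not shown. The Ctss window held the shorter core, 207 bases before the start, and 1 of the 2 H2-DMa windows held a Y box, while the Cd80 window matched none of the 3 motifs. Of all 32851 promoter windows, 0.968% held the X box core, 2.32% the shorter core and 37.4% the Y box, so that a Y box alone is common. The X box core followed by a Y box within 50 bases on the same strand, a search added after the matches had been seen, was found in 8 windows (0.0244%), of which 3 belonged to class II genes, H2-DMb1, H2-Eb1 and H2-Eb2. These 3 did not move alike: the log2 ratio in females was -1.36 for H2-DMb1 and -1.67 for H2-Eb1 but 0.63 for H2-Eb2, a class II beta chain gene whose ratio in males was 0.06.

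The first comparison was between AAI-treated and control females. Of the 10 genes, 6 were at least 2-fold lower in AAI-treated females (H2-Ab1, H2-Eb1, Cd86, Cd74, H2-DMb1 and Ctss) and 0 were at least 2-fold higher, where 3.09% of the 31682 genes compared were lower and 1.37% higher by the same rule. Their median log2 ratio was -1.22, against 0.04 for all genes, and 9 of 10 were below 0, against 44.8% of all genes. In males given the lower dose, 1 of 10, Cd86, was at least 2-fold lower and 0 were higher, where 4.59% of 30539 genes were lower and 3.51% higher. The median in males was -0.29, against 0.00 for all genes, and 9 of 10 genes were again below 0, against 48.2% of all genes. The ratio was beyond 2 software errors from 0 for 9 of 10 genes in females and for 3 of 10 in males, where 27.8% and 28.8% of all genes were beyond it in either direction.

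**Figure D1:**
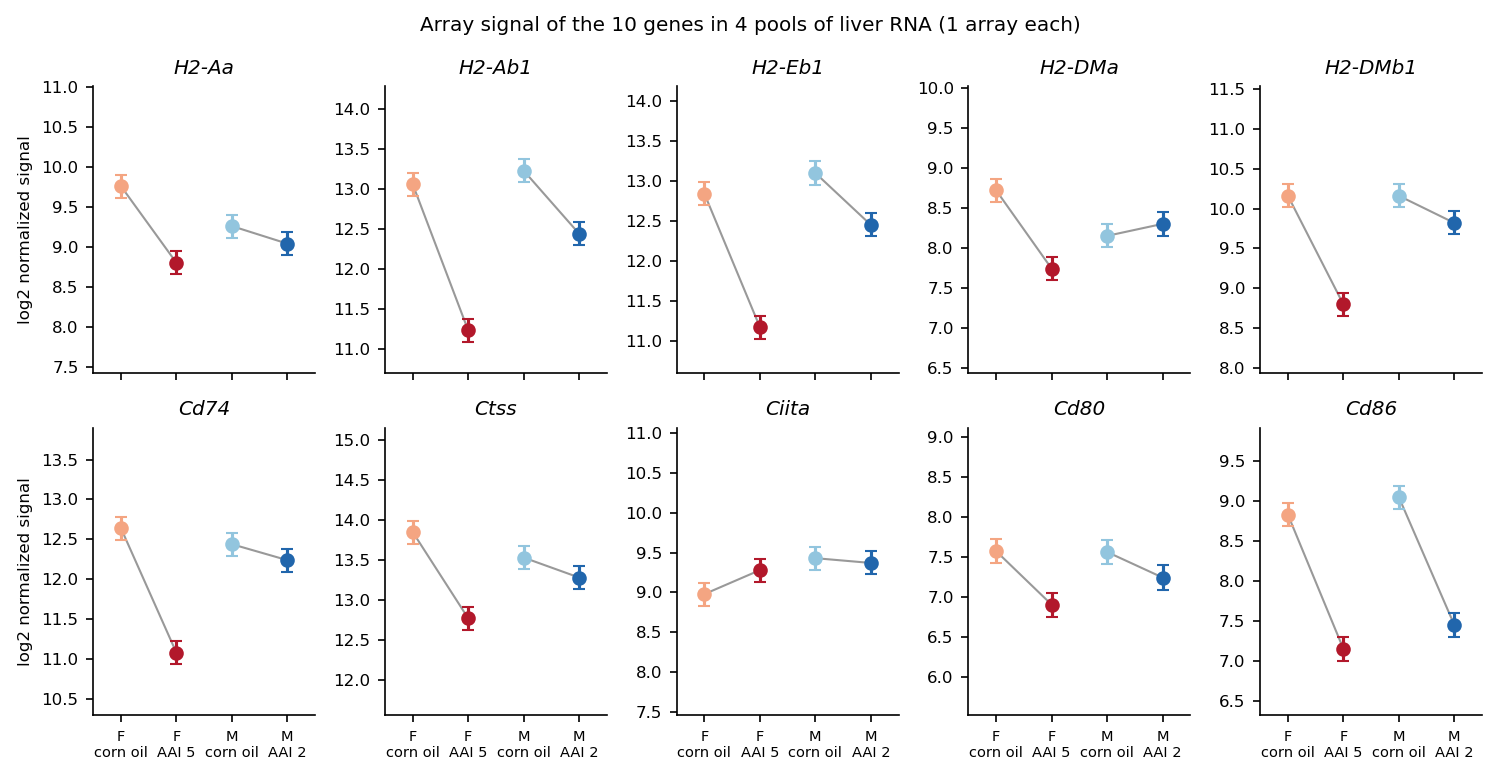
Log2 normalized signal of the brightest probe of each of the 10 genes (vertical axis, a span of the same size in each panel) in control females, females given AAI at 5 mg/kg/day, control males and males given AAI at 2 mg/kg/day; each point is 1 array of RNA pooled from 5 mice, bars are the scanner software's error, and lines join the pools of 1 sex. In 9 of 10 panels the AAI-treated female pool is the lowest of the 4. The share of all genes with that pool lowest was not counted.

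Of the class II chain genes H2-Aa, H2-Ab1 and H2-Eb1, the beta chain genes H2-Ab1 and H2-Eb1 had the lower ratios in females. H2-Ab1, the beta chain of the A molecule, had signals of 13.06 in control females, 11.23 in AAI-treated females, 13.23 in control males and 12.44 in AAI-treated males. The controls of both sexes lay close together, the AAI-treated females were far below them and the AAI-treated males lay between. The log2 ratio was -1.83 in females (3.55-fold lower) and -0.80 in males (1.74-fold lower). The probe (NM_207105) lies on chromosome 17 between 34406296 and 34406355 of build mm9, the build of the array design. H2-Ab1 has 4 probes, all above background. Their ratios were between -1.83 and -1.57 in females (mean -1.70 ± 0.14, SD over 4 probes). In males they were between -0.80 and -0.26 (mean -0.55 ± 0.23). The probes read the same pools and some overlap in position, so they are not replicates, and dose differed with sex.

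H2-Eb1, the beta chain of the E molecule (NM_010382, chromosome 17, 34453075 to 34453134), followed the same order, with 12.84 and 11.17 in control and AAI-treated females and 13.10 and 12.45 in males. Its log2 ratio was -1.67 in females and -0.65 in males. H2-Aa, the alpha chain that pairs with the product of H2-Ab1 (NM_010378, chromosome 17, 34421285 to 34421344), had 9.76 and 8.80 in females and 9.26 and 9.04 in males. Again the AAI-treated female pool was lowest, but the ratio of -0.95 was smaller in size than the -1.83 of its partner chain, and the ratio in males was -0.22. H2-Aa is read by 1 probe, near base 227 of the transcript, whereas the brightest H2-Ab1 probe lies near base 1125, and the part of probe position in this gap was not tested.

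Among the loading genes, Cd74, the invariant chain (NM_001042605, chromosome 18, 60972075 to 60972132), had signals of 12.64 in control and 11.08 in AAI-treated females and of 12.44 and 12.24 in males. Only the AAI-treated female pool stood apart, with a log2 ratio of -1.56 against -0.20 in males, the largest gap between the sexes in the set (-1.35, software error 0.29 to 0.30). H2-DMb1, the beta chain of the peptide exchange factor H2-DM (NM_010387, chromosome 17, 34297109 to 34297168), had 10.16 in the controls of both sexes, 8.80 in AAI-treated females and 9.82 in AAI-treated males, ratios of -1.36 and -0.33. A further H2-DMb1 probe was not well above background on any array.

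H2-DMa, the alpha chain of H2-DM (NM_010386, chromosome 17, 34274300 to 34274863), had 8.72 and 7.74 in females and 8.15 and 8.30 in males. Control females were above control males here, by 0.57, and the ratio of -0.98 in females lay beside 0.15 in males. Ctss, cathepsin S (NM_021281, chromosome 3, 95360162 to 95360221), had 13.85 and 12.77 in females and 13.53 and 13.28 in males, with ratios of -1.08 and -0.25. The 2-fold line ran between close values: Ctss, at -1.08, was just inside it, and H2-DMa, at -0.98, and H2-Aa, at -0.95, were just outside, all within the software error of each other.

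Ciita, the coactivator on which class II transcription depends, did not share this order. Its brightest probe (NM_001302619, chromosome 16, 10526458 to 10526517) had 8.98 in control and 9.28 in AAI-treated females and 9.43 and 9.37 in males, ratios of 0.30 and -0.06. It was the only gene of the set whose lowest pool was the control females. The other 3 probes had ratios of 0.54, 0.46 and -0.39 in females and of 0.02, -0.26 and -0.43 in males, and the probe at -0.39 was matched to the transcript AK163054. The 4 probes together gave 0.23 ± 0.42 in females and -0.18 ± 0.20 in males (mean ± SD over probes), so that neither direction exceeded the spread between probes.

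The costimulatory ligands differed from each other. Cd86 (NM_019388, chromosome 16, 36603961 to 36604020) had 8.83 in control and 7.15 in AAI-treated females and 9.05 and 7.45 in males. Both AAI pools were below both controls, and the ratios of -1.68 and -1.60 made it the only gene of the set that was at least 2-fold lower in both sexes. Its probes did not give 1 size: 2 further probes of the same transcript had ratios of -2.25 and -1.04 in females and of -0.82 and -0.49 in males, and a 4th was not well above background on any array. All 3 measured probes were at least 2-fold lower in females, but in males only the brightest was, and the mean over them was -1.66 ± 0.61 in females and -0.97 ± 0.57 in males.

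Cd80 (NM_009855, chromosome 16, 38486772 to 38486831) had 7.57 and 6.90 in females and 7.56 and 7.24 in males, with ratios of -0.67 and -0.32 that were not reached by its other 3 probes. These had -0.04, -0.19 and -0.17 in females and 0.39, -0.06 and -0.03 in males, and the mean over 4 probes was -0.27 ± 0.28 in females. Over all 21 probes of the set that were above background, 11 were at least 2-fold lower in females and 1 in males, 0 were at least 2-fold higher in either sex, and 18 were below 0 in each sex. Of the 11, 4 were probes of H2-Ab1 and 3 of Cd86. Of all probes above background on both arrays, 2.78% were lower and 1.11% higher by 2-fold in females, and 3.98% and 2.84% in males, with 47.7% below 0 in each sex.

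**Figure D2:**
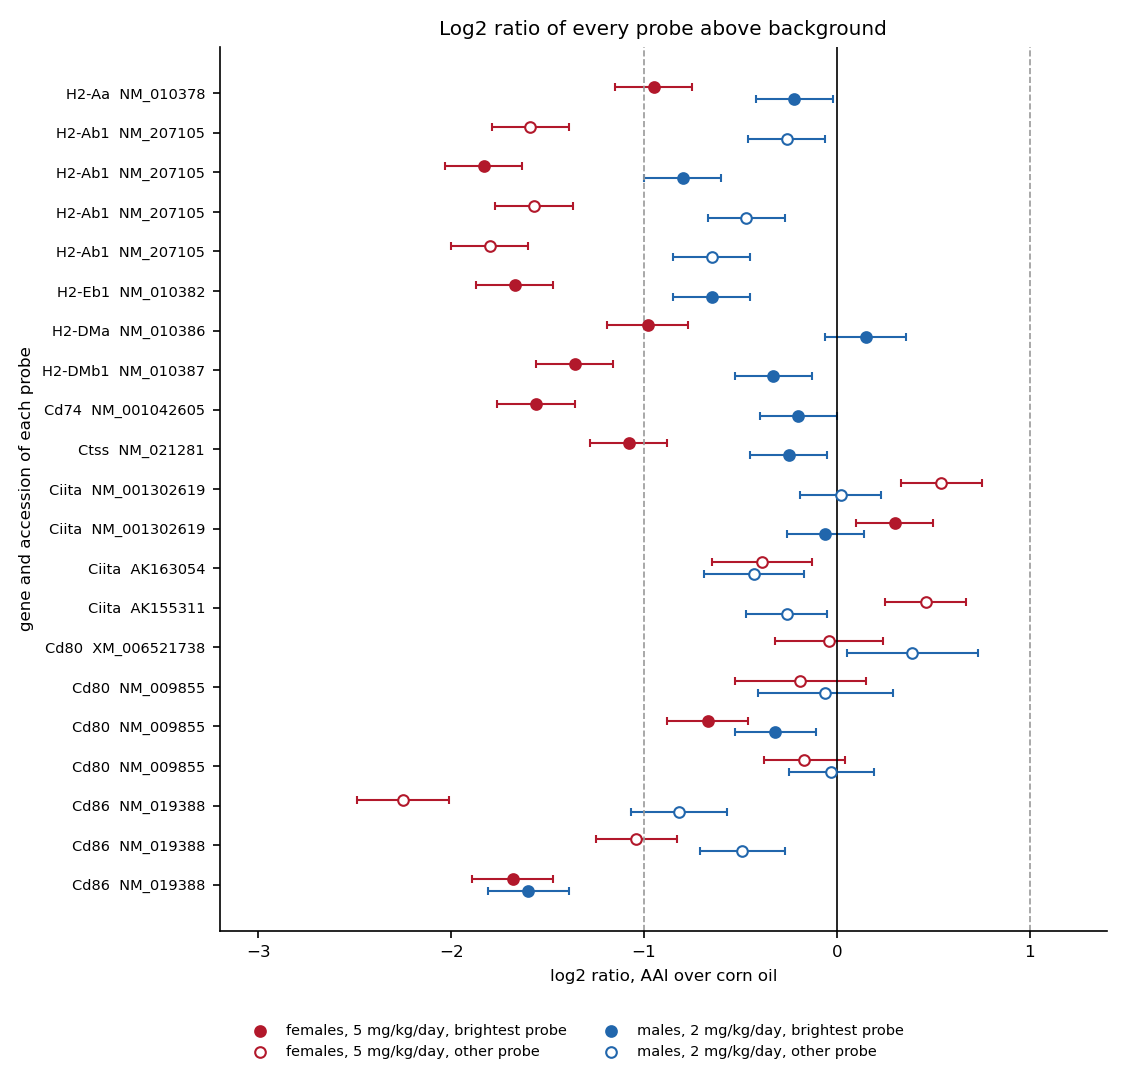
Log2 ratio of AAI over corn oil (horizontal axis) for each of the 21 probes above background (vertical axis, gene and accession), in females given 5 mg/kg/day (red) and males given 2 mg/kg/day (blue); filled points are the brightest probe of a gene, bars are the scanner software's error and dashed lines mark 2-fold. The 4 H2-Ab1 probes lie together within each sex, whereas the Cd86, Ciita and Cd80 probes spread.

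By rank among the 29714 genes above background on both female arrays, counted from the lowest ratio, H2-Ab1 stood at 105, Cd86 at 137, H2-Eb1 at 142, Cd74 at 177 and H2-DMb1 at 272. Ctss stood at 640, H2-DMa at 871, H2-Aa at 927, Cd80 at 2162 and Ciita at 22295. In males, among 28433 genes, Cd86 stood at 398 and H2-Ab1 at 1821, and the other 8 lay between 2467 and 18078. Summed over the 10 genes, a measure that the brightest probes dominate, the signal was 40600 in control and 15900 in AAI-treated females and 39300 and 28600 in males.

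The sexes lay close together in the corn oil controls. The median difference of females minus males was 0.01 over the 10 genes, between -0.46 for Ciita and 0.57 for H2-DMa, and 0 of 10 passed 2-fold, where 3.83% of 30891 genes were lower and 1.86% higher in females. Among AAI-treated mice the median was -0.53, and 4 of 10 genes were at least 2-fold lower in females at the higher dose, H2-Eb1 (-1.28), H2-Ab1 (-1.20), Cd74 (-1.16) and H2-DMb1 (-1.03). By this rule 3.25% of 31494 genes were lower and 1.17% higher. The female ratio minus the male ratio was below 0 for 9 of 10 genes, against 48.8% of 28234 genes, and at -1 or beyond for 5, against 4.77%. These 5 were H2-Ab1 (-1.03), H2-Eb1 (-1.02), H2-DMa (-1.13), H2-DMb1 (-1.03) and Cd74 (-1.35). It was -0.08 for Cd86. Whether this gap belongs to the sex or to the dose cannot be told apart.

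The genes with the most similar pattern were sought by the distance of their centred log2 values over the 4 arrays from the mean of H2-Aa, H2-Ab1 and H2-Eb1, among 28231 genes above background on every array. The nearest 5 were Adamts4 (distance 0.070), A330009N23Rik (0.092), 1190002F15Rik (0.131), Zfp146 (0.155) and Pik3cd (0.160). Of the other genes of the set, H2-DMb1 was at rank 8 (0.194) and Cd74 at rank 20 (0.260), followed by Ctss at 338, Cd80 at 964, H2-DMa at 1624, Cd86 at 1733 and Ciita at 14744. With 4 arrays and so many genes, near patterns are easily met, and these ranks are a description.

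The class II genes lie in a cluster on chromosome 17 beside genes of the class I pathway, and the neighbours were compared after the ratios of the set had been seen. Over the span of the 5 genes of the set on this chromosome and 50 kb on either side, 14 other genes or unnamed transcripts could be compared in females, with a median ratio of -0.44 and a range from -1.24 to 0.63, and 1 of them, the butyrophilin-like gene Btnl2, was at least 2-fold lower. The peptide transporter genes Tap1 and Tap2 had -0.80 and -0.65, the immunoproteasome genes Psmb8 and Psmb9 -0.60 and -0.40, and Brd2, which encodes a chromatin reader, -0.98. H2-Oa and H2-Ob, which encode an inhibitor of H2-DM, had -0.49 and -0.02, and H2-DMb2, the neighbouring second H2-DM beta gene, had 0.60. In males the median of 14 neighbours was 0.03, with 1 at least 2-fold lower, the predicted gene Gm20506 (-1.08), and 2 higher, Btnl2 (1.05) and H2-Ea-ps (a bound of 2.18). Btnl2 was thus past 2-fold in opposite directions in the sexes, a difference that was not tested.

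**Figure D3:**
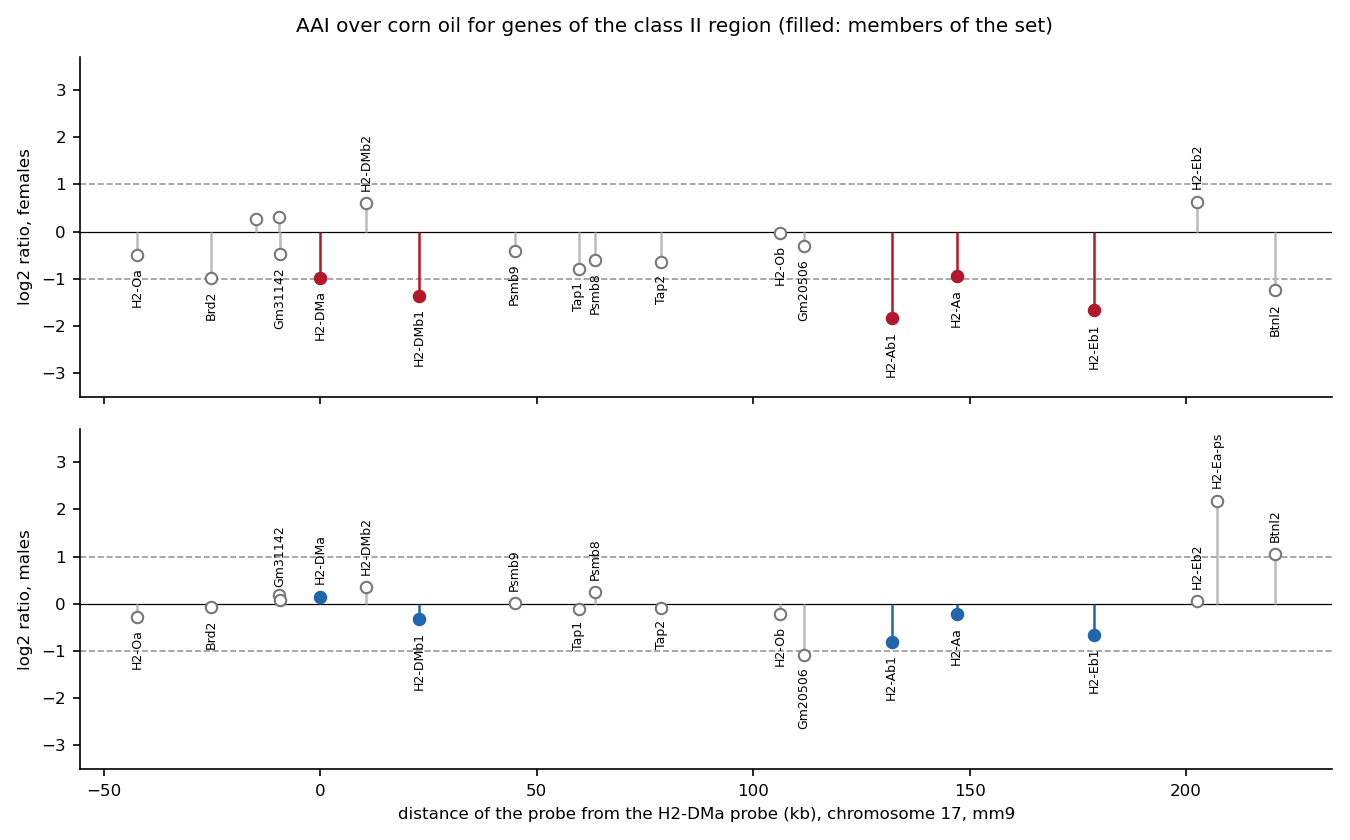
Log2 ratio of AAI over corn oil in females (top) and males (bottom) against the distance in kb of each gene's probe from the H2-DMa probe on chromosome 17 (mm9); filled points are the 5 genes of the set, open points other genes and unnamed transcripts, and dashed lines mark 2-fold. In females H2-Ab1 and H2-Eb1 reach -1.83 and -1.67, while H2-DMb2 and H2-Eb2 lie above 0, and in males H2-Ea-ps is a lower bound of 2.18.

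Other genes of the class II pathway lay nearer to 0. Of 26 measured in females, 1 was at least 2-fold lower, Irf8 (-1.11), a transcription factor of macrophages and dendritic cells. In females 0 were higher, with a median of -0.11. Over all genes, 3.09% were lower and 1.37% higher by this rule in females, and 4.59% and 3.51% in males. The counts of this list were near these shares, which also stand beside the counts of the lists that follow. The subunits of the X box complex Rfx5, Rfxank and Rfxap had -0.40, -0.30 and -0.03, and the Y box subunits Nfya, Nfyb and Nfyc had -0.21, 0.44 and 0.00. Other lysosomal enzymes that act on antigen or the invariant chain were also within 2-fold, with -0.46 for Lgmn, -0.10 for Ctsl and -0.57 for Ctsb. In males 0 of 27 were lower and 1 was higher, the pseudogene H2-Ea-ps, and the median was -0.08. The class I pathway had 0 of 16 genes past 2-fold in either sex, with medians of -0.25 and -0.15 and the lowest female ratios at H2-Q4 (-0.91) and Tap1 (-0.80).

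Of other costimulation and checkpoint genes, 4 of 17 were at least 2-fold lower in females and 0 higher, with a median of -0.22. They were Pdcd1lg2 (-1.25), a ligand of the checkpoint receptor PD-1, the T cell costimulator Icos (-1.19), Cd70, whose -1.14 is a bound since its probe was not above background on the AAI array, and Cd40 (-1.01), the receptor that licenses antigen-presenting cells. Pdcd1lg2 and Cd40 were also dim. Their processed signals were 39.7 and 62.5 in control and 21.7 and 38.6 in AAI-treated females, with software errors of 0.38 and 0.27 for the log2 ratios. Under other processing settings the list median in females lay between -0.26 and -0.07. Cd28, the receptor of Cd80 and Cd86, had 0.01 in females. In males 2 of 16 were lower, Cd28 (-1.42) and Cd276 (-1.36), and 0 higher. Cd28 had 9.16 in control males, against 7.74 in AAI-treated males and 7.80 and 7.81 in control and AAI-treated females, so the control male pool alone stood apart. Its ligand Cd86 (-1.60) was at least 2-fold lower in males by its brightest probe only, with a mean of -0.97 over 3 probes.

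Markers of the cells that present antigen were read beside these values. Of 14 Kupffer cell and macrophage markers, 10 were at least 2-fold lower in females, among them Cd5l (-1.77), Timd4 (-1.55) and Clec4f (-1.41), and 2 in males, with medians of -1.29 and -0.56. Their summed signal was 168000 in control and 75600 in AAI-treated females, and 142000 and 96100 in males, and all were above background on every array. Marco (0.05) and Cd68 (-0.17), macrophage genes of the same list, were not lower by 2-fold in females. The part of the macrophage markers in the class II ratios was not tested.

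Of 10 dendritic cell markers, 2 were at least 2-fold lower in females, Batf3 (-1.36) and Clec9a (-1.24), genes of the cross-presenting subset, and the medians were -0.05 and 0.15. In females 5 of 10 were above 0, among them Zbtb46 (0.55) and Flt3 (0.54), general dendritic cell genes with 0.83 and 0.40 in males. Xcr1, another gene of that subset, was not above background on any array, and the summed signal of the list was 32800 and 27100 in females and 45000 and 33500 in males. Siglech alone, a gene of plasmacytoid dendritic cells, made up 92.2% to 95.7% of this sum, and its ratios were -0.28 and -0.45. Its processed signal of 26100 to 41100 was above the 4210 to 11100 of the Kupffer cell gene Clec4f. Whether the Siglech probe, and so this sum, measures dendritic cells was not tested. B cell markers had medians of 0.17 and -0.09 over 9 genes and summed signals of 3410 and 3090 in females and 3070 and 2480 in males, with Cd79b (-0.92 and -1.17) the lowest in each sex. Pan-leukocyte genes had medians of -0.38 and -0.16, and T and NK cell genes of -0.39 and -0.20. Interferon-stimulated genes were listed because interferon gamma also induces class II genes through Ciita. They had 9 of 16 at least 2-fold lower in females, led by Cxcl10 (-1.91), Ifit1 (-1.78) and Oasl2 (-1.60), and 2 in males, with medians of -1.18 and -0.36.

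**Figure D4:**
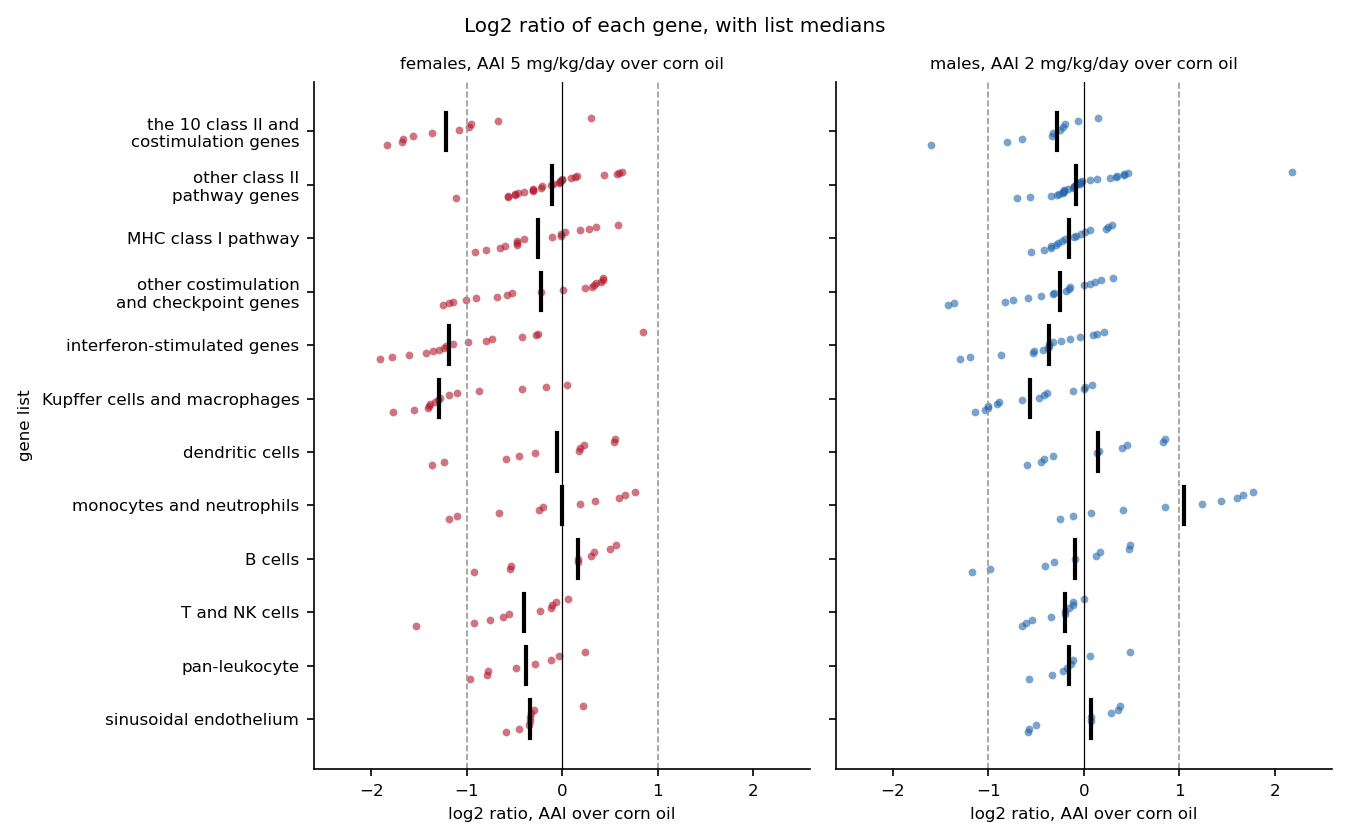
Log2 ratio of AAI over corn oil (horizontal axis) for each gene of the set and of 11 other lists (vertical axis) in females (left, red) and males (right, blue); each point is a gene detected on 1 or both arrays of the pair, black bars are list medians and dashed lines mark 2-fold. In females the set (-1.22), the interferon-stimulated genes (-1.18) and the Kupffer cell and macrophage markers (-1.29) have medians past 2-fold.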

How the data were processed

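Liver RNA of 5 mice was pooled for each of 4 groups and hybridized to Agilent SurePrint G3 Mouse GE 8x60K arrays labeled with Cy3. The authors used Feature Extraction 10.5.1.1 and deposited linear intensities per spot, with background subtraction and, on 3 of 4 arrays (not that of AAI-treated females), a correction of multiplicative trends. A table of the whole series, also deposited by the authors, holds raw and quantile-normalized signal intensities and detection calls, and served as an alternative.

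Control spots and spots marked as outliers were left out, spots of a probe were averaged on the log2 scale, and the 56495 of 56605 probes measured on all arrays were quantile normalized over these 4 (Python 3.11.15, numpy 2.4.6, pandas 2.3.3). The arrays give no counts, and 1 array per group limits precision. A gene is its brightest probe. A gene entered a comparison when 1 or both of its arrays were well above background, and a ratio with 1 side below is a lower bound against the dimmest signal above background. Without replicates no test was made, and a 2-fold rule was used. Gene names read as dates in 2 files were taken by probe from the others. The scripts were tested on simulated data. The text names all 10 genes of the set, the 5 nearest patterns and from each of 16 other lists the 3 largest ratios, of which not all are printed. Further genes of these lists and of the chromosome 17 region were named for their role or after their values were seen. The members and lists were chosen with earlier results of these data known. The 9 alternatives included normexp background correction with an offset of 50 (limma 3.58.1 in R 4.3.3), scaling to the 75th percentile, the mean of all probes, and other fold thresholds.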

Additional observations from a re-analysis of the deposited data

Results flagged for a closer look

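The genes and lists given here had ratios of opposite sign in females and males. The difference between the sexes was not tested, since each group had 1 array, and dose differed with sex. The log2 ratio of H2-DMa was -0.98 in females, against 0.15 in males. Ciita had 0.30 in females and -0.06 in males, both within the spread of its probes. The median of the monocyte and neutrophil markers was -0.01 in females and 1.04 in males. Of these genes, 2 of 10 were at least 2-fold lower in females (Ly6c2 and Ly6c1), against 3.09% of all genes. In males 5 of 10 were higher, Ly6c2 and Ly6c1 among them, against 3.51%. Ly6c2 and Ly6c1 had close ratios, -1.18 and -1.10 in females and 1.60 and 1.67 in males. Their log2 signals were 12.94 and 12.95 in AAI-treated females. Whether their probes give separate readings was not tested. The control pools already differed in this list. The median of females minus males was 1.34 in the controls, with 5 of 10 at least 2-fold higher in females, and -0.08 among AAI-treated mice. The median AAI ratio in females lay between -0.01 and 0.14 under the other settings, so that its sign was not settled. The medians of the dendritic cell markers were -0.05 and 0.15, those of the B cell markers 0.17 and -0.09, and those of the sinusoidal endothelium markers -0.34 and 0.08. With the mean of all probes the dendritic median was -0.11 in both sexes, and the male B cell median ranged from -0.23 to 0.05, so these signs also depended on the setting.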

How the results depend on the processing

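Under the 7 alternatives that changed values, the 10 ratios in females kept their direction, and no ratio in the set changed sign in males, except that Cd80 came to -0.00 with the mean of all probes. In females the count of genes at least 2-fold lower was 6 of 10 under each of these 7. At a 1.5-fold threshold it was 9, where 9.95% of all genes were lower. At a 3-fold threshold it was 3, where 0.71% of all genes were lower. The count of 1 in males was 0 with the mean of all probes and 3 at a 1.5-fold threshold, which 11% of all genes pass. The 4 genes lower in AAI-treated females than in AAI-treated males were 0 at a 3-fold threshold, which 1.4% of all genes pass. Cd86 ranged from -1.72 to -1.19 in females and from -1.64 to -0.97 in males, and in females H2-DMa came to -0.74 under 1 alternative and Cd80 ranged from -0.68 to -0.27. In the sex comparison of the controls, H2-Ab1, H2-DMb1 and Cd86 changed sign under at least 1 alternative, and Ciita did among AAI-treated mice. The median of the dendritic cell markers ranged from -0.28 to 0.03 in females and from -0.11 to 0.21 in males. Scaling to the 75th percentile moved the median of all genes to at most 0.10. The cause of these shifts was not tested. No paired analysis was possible because each group has 1 array. Leaving out an array was not possible either, and dim probes such as those of Cd80 limit what can be read at low signal.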

Other observations

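The signal of the E alpha chain gene H2-Ea-ps went against the labelled strain in the AAI-treated male pool alone, the identity of the pool was not tested, and every male ratio rests on it. Its processed signal was 85.0 in AAI-treated males, against 4.04 in AAI-treated females, 4.08 in control females and 4.37 in control males, all 3 not well above background. The signal in AAI-treated males was at least 4.54-fold higher than in control males. The gene has 1 probe (NM_010381, chromosome 17, 34481469 to 34481528, mm9), and the software error of the signal of 85.0 was 13.6%.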
